A study of Mus musculus with 18 samples.

Results

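RNA was sequenced from L929 cells, a line of wild-type mouse fibroblasts, in 6 groups of 3 independently treated cultures. The comparison described here is between the 3 libraries from cells given HT-DNA and AOA (HT-DNA+AOA) and the 3 from cells given HT-DNA alone (HT-DNA), chosen by their labels, so it rests on 6 of the 18 libraries. HT-DNA is DNA from herring testis, which was brought into the cells by transfection with a lipid reagent at 0.5 μg/ml for 6 h. AOA (aminooxyacetic acid) blocks aminotransferases, the enzymes that move amino groups between amino acids and keto acids, and the cells had it at 0.5 mM from 1 h ahead of the DNA. Cells without HT-DNA were given the vehicle DMSO (Mock), AOA, or AOA and 20 mM aspartate, and the last group was given HT-DNA, AOA and the same aspartate (HT-DNA+AOA+Asp). All groups are of 1 cell line, which limits what they stand for, and no group was given aspartate without AOA. In RNA from whole cultures, a change in the share of cells that express a gene and a change in its RNA per cell cannot be told apart.

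Double-stranded DNA in the cytosol binds the enzyme cGAS, which makes a cyclic dinucleotide that activates STING. STING then leads to activation of the kinase TBK1, the transcription factor IRF3 and NF-κB, to the transcription of type I interferon and, through the interferon receptor and the transcription factor ISGF3, to that of interferon-stimulated genes (ISGs). Loss of amino acids or a block in their metabolism activates eIF2α kinases and the transcription factor ATF4, which raises genes of amino acid supply and of the stress response. Cellular cholesterol is held steady by SREBP2, which drives the genes of sterol synthesis and uptake when sterols are low.

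Read numbers were estimated by the authors for 57180 genes, of which 14263 had enough counts in at least 1 group to be tested. Totals ran from 18273829 to 23378938 counts in the 6 libraries, and levels are given as CPM, which are counts scaled to a common library total with TMM factors. Totals, the share of counts on mitochondrially encoded mRNA (2.88% ± 0.0742 with AOA and 2.80% ± 0.233 without, SD, n = 3) and the share of the 20 most abundant genes (9.32% and 8.54%) gave exact two-sided permutation p-values of 0.2, 0.8 and 0.1, where 0.1 is the smallest that 3 libraries against 3 allow. The fibroblast label was checked on 11 markers, of which 7 reached 1 CPM, while Thy1, Fap, Lum and Dcn were at or near 0. Of 22 markers of other cell types only the macrophage and lysosome marker Cd68 reached 1 CPM, and the summed macrophage markers were 139.8 to 156.8 CPM in HT-DNA+AOA and 113.1 to 128.0 CPM in HT-DNA. The part of that difference in the results was not tested.

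The HT-DNA+AOA libraries stood further apart from each other than those of any other group. The spread of a library's genes around their group mean (SD of the log2 deviation over 11936 genes) was 0.30 in HT-DNA+AOA replicate 1, 0.157 in replicate 2 and 0.282 in replicate 3, and 0.158 to 0.177 in the HT-DNA libraries. These deviations followed transcript length and GC content. Genes with the shortest transcripts, the first of 10 equal groups, had a median deviation of -0.27 in replicate 1 and 0.24 in replicate 3, and those in the last group 0.30 and -0.27. Across genes, which are not independent, Pearson's r of the log2 fold change between HT-DNA+AOA and HT-DNA was 0.01 with length and -0.29 with GC content. A fit with each library's trend on length and GC content removed, chosen after the data were seen, is therefore named beside results that it changed, as are libraries whose removal moved a count. What part of the results these trends make up was not tested otherwise.

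**Figure D1:**
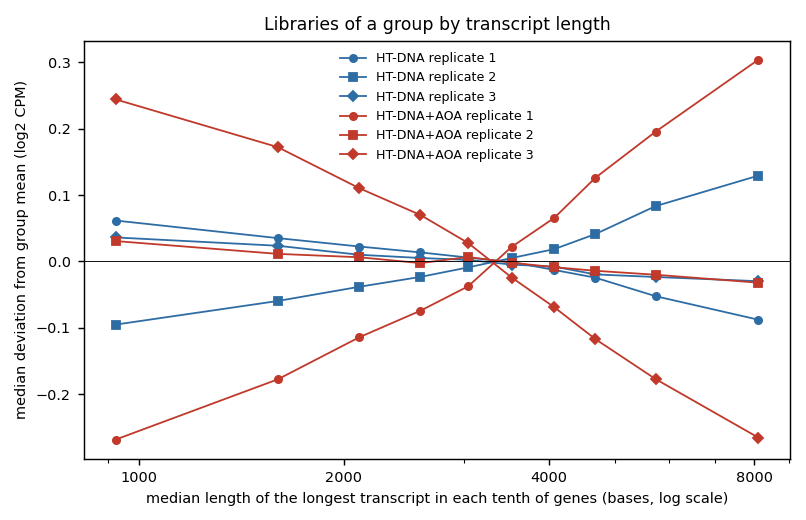
Median log2 deviation of each library from its group mean (vertical axis) in 10 equal groups of genes ordered by transcript length in bases (horizontal axis, log scale), with 1 line for each HT-DNA or HT-DNA+AOA library. HT-DNA+AOA replicates 1 and 3 cross, from -0.27 and 0.24 in the shortest transcripts to 0.30 and -0.27 in the longest, while the HT-DNA libraries stay nearer to 0.

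AOA changed 6477 genes in HT-DNA-stimulated cells (45.4% of those tested), by edgeR's quasi-likelihood test with a Benjamini-Hochberg adjusted p under 0.05, which is the test behind every adjusted p below. Of these, 3246 were higher (22.8%) and 3231 lower (22.7%), and the median log2 fold change over all genes tested was 0.02. At least 2-fold changes were more often rises, with 897 genes higher (6.29%) and 564 lower (3.95%). The libraries of both groups did not overlap for 3122 genes that were higher (21.9%) and 3267 that were lower (22.9%). Since nearly 1 gene in 2 passed the test, a list of genes stands out only where its share in 1 direction is far from these backgrounds. The p-values rest on a spread estimated for each gene over the cultures of all 6 groups, from 1 experiment. The HT-DNA+AOA libraries stood further apart than that of any other group, so this shared estimate can understate their spread. With only the 6 compared libraries in the fit, 4167 genes passed, of which 1972 were higher and 2195 lower. These are fewer than above in both directions, so the backgrounds above do not apply to list counts from that fit. In it 63 of 79 antiviral effectors, 11 of 14 chemokines and 15 of 22 amino acid response genes were higher. Of the sterol genes 15 of 26 were lower.

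**Figure D2:**
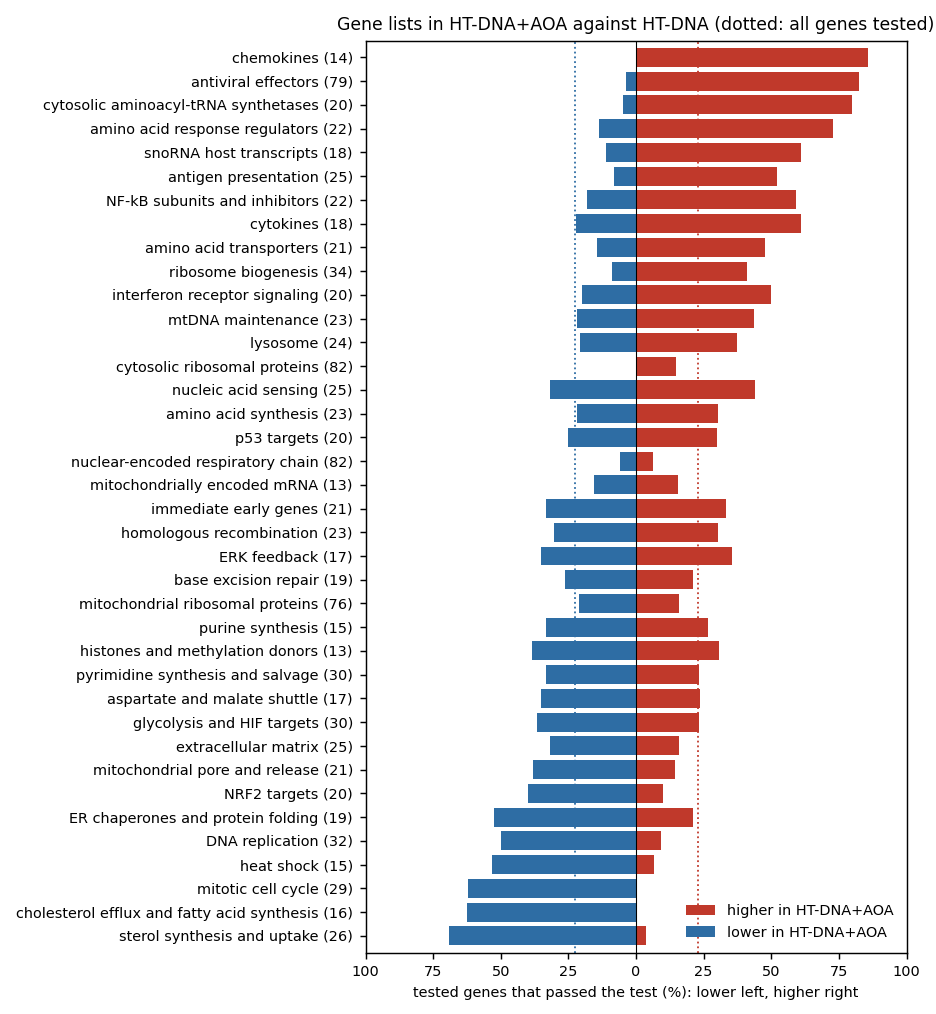
Share of each list's tested genes (number in brackets) that passed the test between HT-DNA+AOA and HT-DNA, in percent, lower to the left and higher to the right, with dotted lines at the share of all genes tested (22.7% lower and 22.8% higher). Chemokines (12 of 14) and antiviral effectors (65 of 79) reach furthest to the right, and sterol synthesis and uptake (18 of 26) furthest to the left.

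Among genes that sense DNA and RNA, some rose strongly and others fell. Of 25 tested genes of nucleic acid sensing, 11 were higher and 8 lower, with a median log2 fold change of 0.16. In the fit of the 6 libraries 5 were lower. Irf7, the transcription factor that amplifies type I interferon, was at 4.55, 4.97 and 4.98 CPM with HT-DNA and 26.02, 19.6 and 27.3 CPM with HT-DNA+AOA (log2 fold change 2.33 ± 0.14, SE, adjusted p = 2.48e-10). All 3 libraries with AOA were above all 3 without. Rigi, the RNA sensor RIG-I, went from 19.2, 22.5 and 17.8 CPM to 111, 70.4 and 71.7 CPM (log2 fold change 2.09 ± 0.14, SE, adjusted p = 7.07e-10), with replicate 1 highest. Zbp1, a sensor of Z-form nucleic acids that recruits RIPK3, was at 2.22, 2.56 and 2.795 CPM without AOA and 9.77, 8.93 and 9.72 CPM with it (log2 fold change 1.90 ± 0.21, SE, adjusted p = 5.01e-07). Trex1, the exonuclease that degrades cytosolic DNA, rose from 4.19, 5.26 and 5.68 CPM to 11.2, 12.1 and 15.6 CPM (log2 fold change 1.35 ± 0.15, SE, adjusted p = 6.37e-07), although its reads were shared with other genes in 17 of the 18 libraries, as its estimated counts that are not whole numbers show.

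Cgas and Sting1, members of the DNA-sensing pathway, did not rise together. Cgas was at 7.98, 6.77 and 8.69 CPM with HT-DNA and 12.4, 11.2 and 8.41 CPM with HT-DNA+AOA, so the groups overlapped (log2 fold change 0.45 ± 0.14, SE, adjusted p = 0.0113). It did not pass after the correction for length and GC content, in the fit of the 6 libraries, or when HT-DNA replicate 2 or HT-DNA+AOA replicate 1 was left out. Sting1, the adaptor, fell from 9.299, 7.82 and 7.95 CPM to 5.17, 5.18 and 5.55 CPM (log2 fold change -0.66 ± 0.11, SE, adjusted p = 9.46e-05). Every library with AOA lay below every one without. Ikbke, a kinase related to TBK1, fell by 1.10 on the log2 scale (adjusted p = 9.65e-07), Mavs, the adaptor of RNA sensing, by 0.85 (adjusted p = 6.82e-08) and Ripk3, the necroptosis kinase, by 0.38 (adjusted p = 0.000721). Of 18 type I interferon genes in the files none had enough counts to pass the filter. Ifnb1 had 6, 4 and 2 counts in the HT-DNA+AOA libraries, 0 in each HT-DNA, Mock and AOA library, which allows up to 3 counts per library, and 1, 0 and 0 with HT-DNA+AOA+Asp. In the fit without a filter, 8 of the 18 were tested and Ifnb1 alone passed (adjusted p = 0.0224), a call that rests on the 12 counts in the HT-DNA+AOA libraries.

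Genes for subunits of ISGF3 rose. Of 20 tested genes of interferon receptor signaling, 10 were higher and 4 lower (median 0.26). Stat2 was at 31.8, 31.8 and 29.3 CPM with HT-DNA and 70.9, 56.9 and 56.6 CPM with HT-DNA+AOA (log2 fold change 0.99 ± 0.10, SE, adjusted p = 1.01e-07), and Irf9 went from 28.4, 25.1 and 26.3 CPM to 71.05, 67.6 and 75.8 CPM (log2 fold change 1.42 ± 0.08, SE, adjusted p = 9.01e-11). For both the lowest library with AOA was above the highest without. Irf1, a further activator of ISGs, rose less, from 23.4, 21.2 and 21.97 CPM to 36.9, 32.3 and 36.2 CPM (log2 fold change 0.66 ± 0.09, SE, adjusted p = 4.57e-06). The receptor genes changed less. Ifnar1 was at 38.1, 34.8 and 33.1 CPM and 36.7, 35.9 and 31.1 CPM (log2 fold change -0.03 ± 0.08, SE, adjusted p = 0.81). Ifnar2, the other subunit of the type I receptor, was at 22.9, 24.8 and 23.7 CPM and 25.2, 28.03 and 28.3 CPM, a small rise (log2 fold change 0.19 ± 0.08, SE, adjusted p = 0.0481) that did not pass with library totals, without a filter, with the replicate block, in the fit of the 6 libraries or without any 1 library except HT-DNA+AOA replicate 1. Ifngr1, a subunit of the interferon-γ receptor, fell (log2 fold change -0.68 ± 0.12, SE, adjusted p = 8.63e-05). Tyk2, the kinase on the type I receptor, also fell (log2 fold change -0.74 ± 0.09, SE, adjusted p = 8.95e-07).

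The feedback inhibitors of this pathway went in different directions. Usp18, an ISG that blocks the type I receptor, rose from 6.72, 5.78 and 6.03 CPM to 43.9, 35.7 and 50.4 CPM (log2 fold change 2.81 ± 0.16, SE, adjusted p = 8.94e-11). Socs3, an inhibitor of cytokine receptors that STAT3 induces, fell from 58.3, 51.5 and 60.1 CPM to 17.4, 18.7 and 20.5 CPM (log2 fold change -1.59 ± 0.09, SE, adjusted p = 9.01e-11), with no overlap between groups. Socs1, which restrains JAK kinases at the interferon receptors, was at 4.397, 3.41 and 4.63 CPM and 2.87, 2.93 and 4.53 CPM and did not pass (log2 fold change -0.28 ± 0.22, SE, adjusted p = 0.33).

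Most measured effector genes of the antiviral state rose. Of 92 listed genes, 79 had enough counts in at least 1 group, and of these 65 were higher and 3 lower, with a median log2 fold change of 1.57, also with Tgtp1 at its lower bound. A gene that is low without AOA can enter the test through its level with AOA, so this count does not speak for the 13 that were not tested. Leaving out 1 library at a time left 63 to 66 higher. Of the 53 effectors with at least 10 counts in every library, 41 were higher and 3 lower. With that filter 2982 genes were higher and 2924 lower over all genes. Rsad2 (viperin, an enzyme that makes a chain-terminating nucleotide) was at 15.01, 14.5 and 13.1 CPM with HT-DNA and 96.7, 56.7 and 56.1 CPM with HT-DNA+AOA (log2 fold change 2.30 ± 0.17, SE, adjusted p = 3.68e-09). Replicate 1 was the highest, and no library with AOA came near those without. Oasl1, which restrains translation of Irf7 mRNA, went from 213, 216 and 228 CPM to 509, 486 and 642 CPM (log2 fold change 1.32 ± 0.09, SE, adjusted p = 1.18e-09).

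Larger rises came from lower levels. Ifi44, an ISG of incompletely known function, rose from 1.11, 1.8 and 1.14 CPM to 30.4, 18.02 and 17.3 CPM (log2 fold change 4.02 ± 0.24, SE, adjusted p = 1.82e-10) and Mx2, a dynamin-like GTPase that restricts viruses, from 1.21, 0.900 and 0.874 CPM to 18.02, 14.01 and 12.2 CPM (log2 fold change 3.89 ± 0.32, SE, adjusted p = 1.24e-08). Mx1, its relative, was at 0.152, 0.237 and 0 CPM and 3.08, 1.49 and 1.07 CPM (log2 fold change 3.84 ± 0.67, SE, adjusted p = 0.000116), with at most 5 counts in each HT-DNA library. The immunity-related GTPases, a family of defense against intracellular parasites, took part. Igtp rose from 1.47, 2.79 and 2.45 CPM to 12.96, 8.37 and 10.7 CPM (log2 fold change 2.25 ± 0.22, SE, adjusted p = 1.43e-07) and Iigp1 from 0.859, 0.758 and 0.786 CPM to 3.5, 2.105 and 2.68 CPM (log2 fold change 1.78 ± 0.37, SE, adjusted p = 0.000601). Tgtp1 had 0 counts in each HT-DNA library and 1.04, 1.33 and 0.656 CPM with AOA, at least 7.15-fold higher against a floor of 3 counts per library. Gbp5, a guanylate-binding protein, rose from 1.26, 0.568 and 0.655 CPM to 4.07, 3.03 and 2.56 CPM (log2 fold change 1.97 ± 0.35, SE, adjusted p = 0.000187).

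The 3 effectors that fell were Apobec3, a cytidine deaminase (log2 fold change -0.54 ± 0.08, SE, adjusted p = 1.53e-05), Ifitm2, a membrane protein that blocks viral entry (log2 fold change -0.31 ± 0.09, SE, adjusted p = 0.0113), and Pml, the scaffold of nuclear bodies (log2 fold change -0.36 ± 0.08, SE, adjusted p = 0.000883). Of these, Pml did not pass after the correction for length and GC content and Ifitm2 did not in the fit of the 6 libraries, where it was at 164, 153 and 159 CPM without AOA and 109, 124 and 152 CPM with it. With aspartate added, the 5 risen effectors named next were far under their level with HT-DNA+AOA. In the HT-DNA+AOA+Asp libraries Rsad2 was at 14.7, 14.05 and 13.2 CPM, Oasl1 at 177, 185 and 170.2 CPM, Igtp at 1.74, 1.64 and 1.704 CPM and Mx2 at 0.822, 1.15 and 0.900 CPM. Ifi44 was at 2.805, 2.89 and 2.23 CPM there, above each HT-DNA library and far under each HT-DNA+AOA library.

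**Figure D3:**
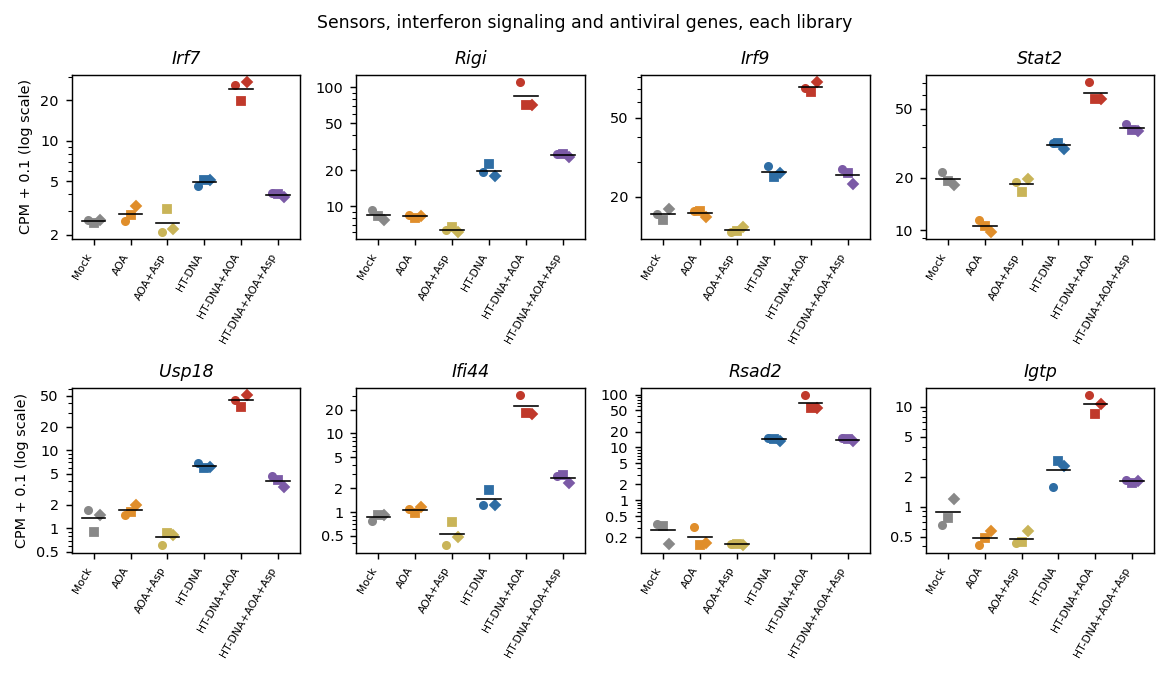
Level of 8 genes of DNA sensing, interferon signaling and the antiviral state in each of the 18 libraries (points, CPM + 0.1 on a log scale), with a line at each group's mean and circles, squares and diamonds for replicates 1, 2 and 3. In the Irf9 panel the HT-DNA+AOA libraries are at 71.05, 67.6 and 75.8 CPM and no other library is above 28.4 CPM.

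The promoters of these genes were read for the interferon-stimulated response element, the DNA sequence that ISGF3 and IRF factors bind, here as the letters GAAANNGAAA on either strand. The window is 250 bases before to 50 after the start of each gene in RefSeq (build GRCm38.p6), which may not be the build behind the counts, and 9840 of the tested genes had one under their symbol. The element was present in 3.49% of 27025 promoters, in 3.15% of those of tested genes, in 50 of 481 (10.4%) of genes at least 2-fold higher with AOA and in 8 of 387 (2.07%) of those at least 2-fold lower. Among the antiviral effectors, 39 of 67 (58.2%) had it, with 33 of the 54 that rose (61.1%) and 2 of the 3 that fell (66.7%). Rsad2 (chr12:26456403-26456702, minus strand) and Igtp (chr11:58199306-58199605, plus strand) are shown because the 1 match in each, in capitals, begins 120 and 34 bases before the start of a gene described above.
Rsad2: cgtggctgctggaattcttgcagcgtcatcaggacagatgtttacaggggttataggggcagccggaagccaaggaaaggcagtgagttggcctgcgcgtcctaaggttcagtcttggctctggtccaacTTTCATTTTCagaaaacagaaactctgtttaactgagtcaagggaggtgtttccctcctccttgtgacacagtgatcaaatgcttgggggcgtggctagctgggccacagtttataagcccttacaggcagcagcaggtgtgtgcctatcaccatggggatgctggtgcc
Igtp: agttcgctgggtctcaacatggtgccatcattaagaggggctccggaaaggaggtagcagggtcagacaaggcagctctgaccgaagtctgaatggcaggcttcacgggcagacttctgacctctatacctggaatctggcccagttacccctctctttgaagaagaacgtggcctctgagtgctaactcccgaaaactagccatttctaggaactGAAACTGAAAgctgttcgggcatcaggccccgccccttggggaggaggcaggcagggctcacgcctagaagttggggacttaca
A match of these letters is a description of the sequence and not a measured binding site, and the effectors without 1 in this window may hold it elsewhere.

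Genes of antigen presentation rose less uniformly. Of 25 tested, 13 were higher and 2 lower (median 0.24). Without HT-DNA replicate 1, 8 were higher, with only the 6 libraries 7, and 0 were lower without HT-DNA replicate 1 or HT-DNA+AOA replicate 1 or 2, and 1 without HT-DNA replicate 3 or after the correction. Nlrc5, the activator of MHC class I genes, rose from 28.8, 27.1 and 26.1 CPM to 76.8, 58.4 and 48.8 CPM (log2 fold change 1.17 ± 0.13, SE, adjusted p = 5.32e-07). Tap1, a subunit of the peptide transporter, rose (log2 fold change 0.67 ± 0.11, SE, adjusted p = 5.75e-05), and so did H2-T24, a class Ib gene whose reads were shared with other genes (log2 fold change 1.29 ± 0.21, SE, adjusted p = 4.02e-05). Cd274, the checkpoint ligand PD-L1, went from 0.758, 1.18 and 0.917 CPM to 4.39, 2.57 and 3.28 CPM (log2 fold change 1.83 ± 0.31, SE, adjusted p = 7.57e-05). The class I gene H2-K1 was at 847, 830.1 and 906 CPM and 822, 941 and 1182 CPM, so the groups overlapped (log2 fold change 0.19 ± 0.10, SE, adjusted p = 0.119). It passed after the correction for length and GC content and without HT-DNA+AOA replicate 1, and the proteasome subunit Psmb8 did likewise (log2 fold change 0.15 ± 0.10, SE, adjusted p = 0.263 with all libraries).

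The same addition of AOA to unstimulated cells, AOA against Mock, shares no library with the comparison above and changed 6516 genes (45.7%). Of these 3199 were higher (22.4%) and 3317 lower (23.3%), with a median over all genes of 0.02. Scaling by library totals instead of TMM factors moved this median by -0.13 and gave 2124 higher and 4502 lower. Of the genes that AOA raised with HT-DNA, 1759 were also raised without it, which is 54.2% of the first list and 55.0% of the second, and 2019 were lowered in both (62.5% and 60.9%). Opposite calls were few, with 87 genes higher with HT-DNA and lower without and 85 the other way. Without HT-DNA, AOA raised 10 of the 79 antiviral effectors and lowered 16 (median -0.11), and 10 of those it lowered were raised with HT-DNA.

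The difference between both AOA effects was tested in the same model and passed for 2209 genes (15.5%), of which 1031 had a higher log2 fold change with HT-DNA (7.23%) and 1178 a lower one (8.26%). With library totals the split was 1388 and 763. Among the antiviral effectors the effect was higher with HT-DNA for 50 and lower for 0, among genes of nucleic acid sensing for 12 and 0, and in interferon receptor signaling for 7 and 0, and after the correction for length and GC content for 59 and 0, 13 and 1, and 7 and 1. Stat2 fell without HT-DNA, from 21.4, 19.2 and 18.1 CPM in Mock to 11.4, 10.5 and 9.71 CPM with AOA (log2 fold change -0.89 ± 0.11, SE, adjusted p = 2.18e-06), and rose with it, a difference of 1.88 (SE 0.14, adjusted p = 1.08e-06). Irf1 went from 12.99, 13.1 and 13.1 CPM to 8.796, 7.99 and 7.04 CPM without HT-DNA (log2 fold change -0.71 ± 0.10, SE, adjusted p = 1.13e-05, difference 1.38, adjusted p = 4.87e-06). Igtp and Iigp1 also fell without HT-DNA, with log2 fold changes of -0.98, adjusted p = 0.0349, and -1.76, adjusted p = 0.0471. Sting1, Socs3 and Tyk2, in contrast, fell in both, by 0.95, 1.58 and 0.70 on the log2 scale without HT-DNA, and the differences did not pass (adjusted p = 0.198, 0.955 and 0.854).

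The count of genes for this difference depended on single libraries. It was 5442 without HT-DNA+AOA replicate 3, and without AOA replicate 2, HT-DNA replicate 1 or 3, HT-DNA+AOA replicate 2, or Mock replicate 1 or 2 it was 1153, 1268, 1260, 1412, 1301 and 1443. Across genes, Pearson's r of the difference was 0.26 with length and -0.43 with GC content, and the part of these trends in the difference was not tested beyond the corrected counts.

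**Figure D4:**
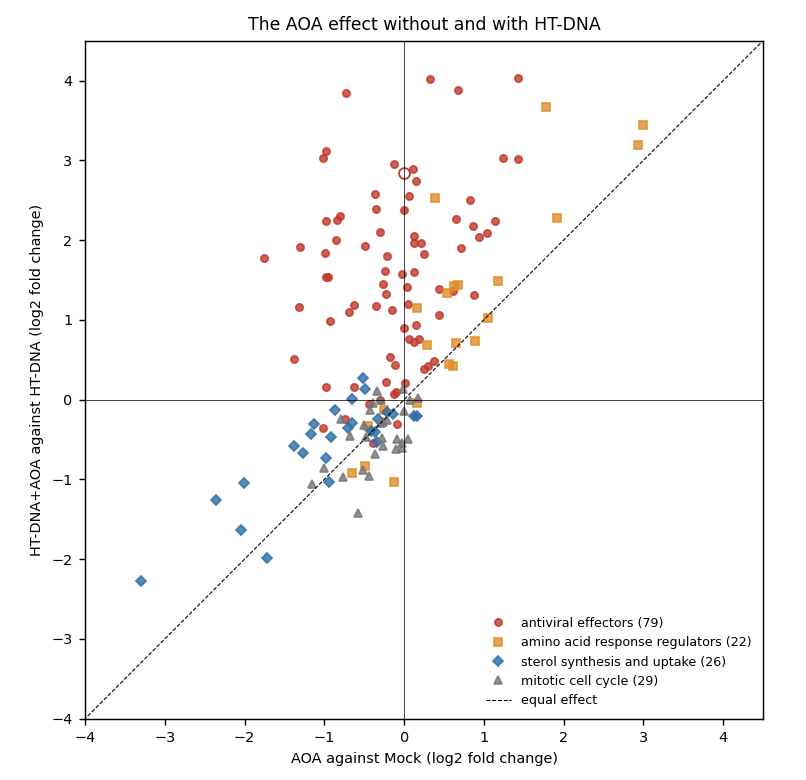
Log2 fold change of the genes of 4 lists (tested genes in brackets) for AOA against Mock (horizontal axis) and for HT-DNA+AOA against HT-DNA (vertical axis), with a dashed line where both are equal and an open circle at the lower bound for Tgtp1. Antiviral effectors lie mostly above the line, on both sides of 0 without HT-DNA (median -0.11) and mostly above 0 with it (median 1.57). The medians of the amino acid response genes are above 0 in both (0.59 and 0.88) and those of the sterol genes below 0 (-0.79 and -0.40), with single genes on the other side.

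Chemokines, the secreted proteins that attract leukocytes, rose with AOA in both settings. Of 14 tested of 24 listed, 12 were higher and 0 lower with HT-DNA (median 2.19, also with Cxcl11 at its lower bound), and 8 were higher and 0 lower without it (median 1.65). Only 7 chemokines had at least 10 counts in every library, of which 5 were higher and 0 lower with HT-DNA. Cxcl2, which attracts neutrophils, was at 7.73, 7.06 and 8.08 CPM with HT-DNA and 144, 137 and 132 CPM with HT-DNA+AOA (log2 fold change 4.17 ± 0.13, SE, adjusted p = 1.27e-14), a 18.02-fold rise. It also rose without HT-DNA, from 10.6, 8.201 and 9.82 CPM to 83.7, 57.7 and 71.8 CPM, though less (2.89 on the log2 scale, difference 1.28, adjusted p = 0.000109). Cxcl1, a ligand of the same receptor, went from 166, 154 and 160.3 CPM to 904, 889.9 and 998 CPM (log2 fold change 2.54 ± 0.09, SE, adjusted p = 2.16e-13), and Ccl2, which attracts monocytes, from 495, 481 and 510.2 CPM to 1422, 1451 and 1604 CPM (log2 fold change 1.59 ± 0.09, SE, adjusted p = 8.68e-11). The Ccl2 effects with and without HT-DNA did not differ past the threshold (difference 0.16 ± 0.12, SE, adjusted p = 0.368).

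Ccl5, Ccl4 and Cxcl11 were at or near 0 in the absence of HT-DNA. Ccl5, which attracts T cells and is induced by IRF factors and NF-κB, had 0 counts in each Mock library and was at 22.9, 26.1 and 27.7 CPM with HT-DNA and 114, 112 and 146 CPM with HT-DNA+AOA (log2 fold change 2.28 ± 0.15, SE, adjusted p = 2.83e-09). Ccl4 went from 2.17, 2.42 and 3.06 CPM to 8.202, 9.34 and 9.06 CPM (log2 fold change 1.79 ± 0.22, SE, adjusted p = 8.32e-06). Ccl20, the ligand of CCR6, rose from 0.202, 0.0474 and 0.131 CPM to 3.08, 2.05 and 2.62 CPM (log2 fold change 4.30 ± 0.54, SE, adjusted p = 2.83e-06). Cxcl11, listed in the files as protein-coding with loss of function, had at most 3 counts in each HT-DNA library and was at least 20.8-fold higher with AOA. Cxcl2 was back at 8.56, 9.43 and 9.23 CPM with aspartate, and Ccl5 was at 23.4, 21.02 and 20.5 CPM.

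Of 18 tested of 30 cytokines, growth factors and related genes, 11 were higher and 4 lower (median 0.84), or 2 lower after the correction for length and GC content. Of the 12 with at least 10 counts in every library, 7 were higher and 3 lower. Il6 was at 0.606, 0.663 and 0.786 CPM and 6.11, 6.52 and 7.22 CPM (log2 fold change 3.25 ± 0.29, SE, adjusted p = 3.07e-08), all libraries with AOA being far above those without. Il33, a nuclear alarmin, rose (log2 fold change 2.32 ± 0.30, SE, adjusted p = 3.28e-06), as did Lif, a cytokine of the IL-6 family (log2 fold change 1.40 ± 0.12, SE, adjusted p = 2.05e-08), Ptgs2, the enzyme COX-2 (log2 fold change 2.64 ± 0.35, SE, adjusted p = 5.67e-06), and Fas, the death receptor (log2 fold change 2.66 ± 0.37, SE, adjusted p = 8.15e-06). Csf1, the macrophage growth factor, was the most abundant of those named and went from 1793, 1874 and 1836 CPM to 4124, 3589 and 4234 CPM (log2 fold change 1.12 ± 0.07, SE, adjusted p = 4.7e-10). Tnfsf9, the ligand of 4-1BB, fell (log2 fold change -1.22 ± 0.12, SE, adjusted p = 7.67e-08). NF-κB factors and their inhibitors rose in 13 of 22 tested genes and fell in 4 (median 0.27). Only 7 were higher when HT-DNA replicate 1 was left out, 8 when HT-DNA+AOA replicate 1 was, and 9 after the correction for length and GC content. Nfkbiz, an inducible coactivator of Il6, rose from 36.6, 40.9 and 39.96 CPM to 144, 129 and 110.5 CPM (log2 fold change 1.71 ± 0.09, SE, adjusted p = 6.72e-11) and Nfkbia, the inhibitor IκBα, from 80.6, 74.04 and 79.97 CPM to 112, 124 and 143 CPM (log2 fold change 0.69 ± 0.09, SE, adjusted p = 4.06e-06). Relb rose as well (log2 fold change 0.97 ± 0.13, SE, adjusted p = 5.69e-06), whereas Map3k14, the kinase NIK of the alternative pathway, fell (log2 fold change -1.17 ± 0.10, SE, adjusted p = 1.68e-08).

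A sequence that NF-κB can bind, spelled GGGNNTTTCC and read on both strands, was present in 1.62% of all promoters, in 1.68% of those of tested genes, in 19 of 481 (3.95%) of those at least 2-fold higher and in 5 of the 8 chemokine promoters available. The promoter of Cxcl2 (chr5:90903649-90903948, plus strand) is shown for its pair of matches, in capitals, which begin 97 and 78 bases before the start.
Cxcl2: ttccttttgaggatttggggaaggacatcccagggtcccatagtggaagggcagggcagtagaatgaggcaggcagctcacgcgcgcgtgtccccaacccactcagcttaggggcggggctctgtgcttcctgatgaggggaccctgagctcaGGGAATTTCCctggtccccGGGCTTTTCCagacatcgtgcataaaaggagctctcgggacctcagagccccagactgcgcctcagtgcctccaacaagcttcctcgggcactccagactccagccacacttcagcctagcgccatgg

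The genes that ATF4 and the eIF2α kinases control were among the largest changes, and they rose whether or not HT-DNA was present. Of 22 tested regulators of the amino acid response, 16 were higher and 3 lower with HT-DNA (median 0.88), and 14 were higher and 4 lower without it (median 0.59). After the correction for length and GC content 5 were lower with HT-DNA. All 14 that rose without HT-DNA also rose with it. Ddit3, the stress factor CHOP, was at 38.9, 30.9 and 36.9 CPM with HT-DNA and 346, 397 and 417 CPM with HT-DNA+AOA (log2 fold change 3.44 ± 0.10, SE, adjusted p = 4.85e-15), a 10.9-fold rise. Ppp1r15a, the phosphatase subunit GADD34 that reverses eIF2α phosphorylation, went from 46.2, 45.8 and 48.04 CPM to 414, 410.2 and 454 CPM (log2 fold change 3.19 ± 0.07, SE, adjusted p = 3.29e-16). The libraries of a group lay close together for both genes, and the groups were far apart. Chac1, which degrades glutathione, rose from 9.198, 8.48 and 9.39 CPM to 37.7, 40.7 and 53.2 CPM (log2 fold change 2.28 ± 0.13, SE, adjusted p = 9.01e-11), and Trib3, a pseudokinase that restrains this response, from 88.6, 79.2 and 83.6 CPM to 193, 232 and 279 CPM (log2 fold change 1.49 ± 0.10, SE, adjusted p = 1.38e-09). Fgf21, a hormone of amino acid scarcity, was low but rose (log2 fold change 3.67 ± 0.42, SE, adjusted p = 8.37e-07).

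The mRNA of the factor itself, Atf4, was at 733, 645 and 677 CPM and 569, 676 and 758 CPM, and the groups overlapped (log2 fold change -0.04 ± 0.08, SE, adjusted p = 0.735). It was higher after the correction for length and GC content (0.15 on the log2 scale). ATF4 is known to be controlled mainly by translation, which these data do not measure. Not every relative rose. Atf5 fell (log2 fold change -0.84 ± 0.12, SE, adjusted p = 1.76e-05), and so did the kinase PERK, Eif2ak3 (log2 fold change -0.92 ± 0.11, SE, adjusted p = 8.97e-07), and Herpud1, a gene of degradation at the endoplasmic reticulum (log2 fold change -1.03 ± 0.11, SE, adjusted p = 2.46e-07). Herpud1 was at 104, 101.4 and 103 CPM in Mock and 84.5, 109 and 87.6 CPM with AOA alone, and its effects with and without HT-DNA differed by -0.90 (adjusted p = 0.000937). With aspartate, Ddit3 was at 137, 121 and 118 CPM and Ppp1r15a at 84.9, 78.1 and 74.2 CPM, under HT-DNA+AOA but above HT-DNA in every library.

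Among 20 cytosolic aminoacyl-tRNA synthetases, the enzymes that load amino acids onto tRNA, 16 were higher and 1 lower (median 0.45), and without HT-DNA 16 were higher and 0 lower (median 0.41). Eprs, which loads glutamate and proline, went from 267, 328 and 278 CPM to 701, 563 and 468 CPM (log2 fold change 0.99 ± 0.11, SE, adjusted p = 3.41e-07), with a wide spread among the libraries with AOA. Aars rose from 419, 421 and 423 CPM to 673, 677 and 732 CPM (log2 fold change 0.72 ± 0.06, SE, adjusted p = 9.95e-09), and Dars, the aspartyl-tRNA synthetase, from 169, 175 and 179 CPM to 232, 237 and 232 CPM (log2 fold change 0.42 ± 0.06, SE, adjusted p = 2.71e-05). The one that fell was Farsa (log2 fold change -0.37 ± 0.11, SE, adjusted p = 0.00904), which did not pass in the fit of the 6 libraries, and 2 were lower without HT-DNA+AOA replicate 3. Of 21 amino acid transporters 10 rose and 3 fell (6 after the correction). Slc38a1, a glutamine carrier, rose most among them, from 6.67, 7.96 and 6.595 CPM to 27.01, 23.5 and 17.7 CPM (log2 fold change 1.68 ± 0.13, SE, adjusted p = 7.98e-09), and Slc7a1 and Slc7a5, carriers of cationic and large neutral amino acids, rose by 0.58 and 0.56 on the log2 scale (adjusted p = 5.59e-05 and 1.54e-05). Slc7a11, the cystine carrier, did not pass with all libraries (log2 fold change 0.25 ± 0.12, SE, adjusted p = 0.0994) and did without HT-DNA replicate 2 or HT-DNA+AOA replicate 3, and it fell without HT-DNA (log2 fold change -0.69 ± 0.12, SE, adjusted p = 0.000101).

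Amino acid synthesis was mixed, with 7 of 23 tested genes higher and 5 lower (median 0.06), against 16 higher and 1 lower without HT-DNA. The 5 lower became 2 or 3 when any 1 of the 6 libraries except HT-DNA+AOA replicate 3 was left out. They became 3 after the correction and 1 in the fit of the 6 libraries. Asns, which makes asparagine from aspartate, rose from 403, 394 and 360.0 CPM to 503, 531 and 534 CPM (log2 fold change 0.44 ± 0.06, SE, adjusted p = 4.24e-06). Cth, an enzyme of cysteine synthesis, rose (log2 fold change 1.27 ± 0.07, SE, adjusted p = 1.08e-10), as did Aldh1l2, a mitochondrial folate enzyme whose reads were shared with other genes (log2 fold change 1.80 ± 0.14, SE, adjusted p = 4.47e-09). Phgdh, the first enzyme of serine synthesis, did not pass with HT-DNA (log2 fold change 0.13 ± 0.10, SE, adjusted p = 0.302) and did after the correction for length and GC content and without HT-DNA+AOA replicate 1. Aminotransferases, the enzymes that AOA inhibits, were measured too. Got1 rose from 149, 147 and 141 CPM to 183, 182 and 210.4 CPM (log2 fold change 0.40 ± 0.06, SE, adjusted p = 5.53e-05) and Gpt2 from 56.2, 58.6 and 52.9 CPM to 86.8, 91.7 and 89.6 CPM (log2 fold change 0.68 ± 0.06, SE, adjusted p = 6.54e-08), whereas Got2 was at 423, 405 and 410.1 CPM and 397, 433 and 492 CPM (log2 fold change 0.10 ± 0.07, SE, adjusted p = 0.271). Got2 passed after the correction and without HT-DNA+AOA replicate 1. The mitochondrial carriers that exchange aspartate for glutamate, Slc25a12 and Slc25a13, fell by 0.53 and 0.65 on the log2 scale (adjusted p = 5.98e-06 and 1.91e-06). Of 17 tested genes of the aspartate and malate shuttle, 4 rose and 6 fell.

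The C/EBP-ATF response element, which ATF4 and its partners bind, was read as TGATGNAA on both strands. It was found in 4.06% of all promoters, in 2.27% of those of tested genes, in 24 of 481 (4.99%) at least 2-fold higher and in 6 of 387 (1.55%) at least 2-fold lower. Of the regulators of the amino acid response 6 of 20 had it (30.0%), 5 of the 14 that rose (35.7%) and 1 of the 3 that fell (33.3%), which was Herpud1. Of the tRNA synthetases 5 of 13 had it (38.5%), and these were among the 10 that rose. The promoter of Chac1 (chr2:119350992-119351291, plus strand) is shown because its match, in capitals, begins 193 bases before the start of a gene that rose 4.85-fold.
Chac1: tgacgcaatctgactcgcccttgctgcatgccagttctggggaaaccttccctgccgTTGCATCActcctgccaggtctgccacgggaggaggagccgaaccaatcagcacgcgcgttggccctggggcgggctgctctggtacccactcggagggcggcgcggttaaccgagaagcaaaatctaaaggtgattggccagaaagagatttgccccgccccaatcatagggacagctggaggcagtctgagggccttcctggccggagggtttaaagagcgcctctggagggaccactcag

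The genes of sterol synthesis and uptake fell as a group. Of 26 tested, 18 were lower and 1 higher with HT-DNA (median -0.40), and 22 were lower and 0 higher without it (median -0.79). Insig1, which holds SREBP in the endoplasmic reticulum, was at 114, 118 and 112 CPM with HT-DNA and 50.7, 50.1 and 42.6 CPM with HT-DNA+AOA (log2 fold change -1.26 ± 0.07, SE, adjusted p = 1.19e-10). It fell further without HT-DNA, from 184, 179.6 and 182 CPM to 37.8, 33.3 and 35 CPM (-2.36 on the log2 scale, difference 1.10, adjusted p = 4.25e-06). Hmgcs1, an early enzyme of sterol synthesis, went from 37.6, 43.5 and 39.4 CPM to 22.7, 20.5 and 14.8 CPM (log2 fold change -1.05 ± 0.12, SE, adjusted p = 1.05e-06). For both genes every library with AOA was below every one without.

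Mvd and Dhcr7, later enzymes of the pathway, fell by 1.99 and 1.63 on the log2 scale (adjusted p = 4.7e-10 and 4.81e-10). The gene called higher, Lss, was barely past the threshold (log2 fold change 0.13 ± 0.05, SE, adjusted p = 0.0449). It did not pass after the correction for length and GC content, with library totals, without a filter or with the replicate block. Nor did it pass in the fit of the 6 libraries or without any 1 of them. The AOA effect was less negative with HT-DNA for 14 of the 26 and more negative for 0. HT-DNA alone changed 6879 genes relative to Mock (48.2%), with 3454 higher and 3425 lower, and that comparison shares the HT-DNA libraries. Of the 26 sterol genes it changed 19, with 17 lower and 2 higher (median -0.29). Hmgcs1 was at 86.6, 85.3 and 87.7 CPM in Mock. Genes of cholesterol efflux and fatty acid synthesis, which other lipid signals control, fell too, with 10 of 16 lower and 0 higher (median -0.33; 1 higher without HT-DNA+AOA replicate 3, after the correction or with DESeq2), among them the exporter Abcg1, from 3.64, 2.46 and 2.62 CPM to 0.575, 0.513 and 0.298 CPM (log2 fold change -2.61 ± 0.27, SE, adjusted p = 1.99e-07), the lipid carrier Apoe (log2 fold change -1.86 ± 0.16, SE, adjusted p = 1.74e-08) and the fatty acid synthase Fasn (log2 fold change -0.95 ± 0.09, SE, adjusted p = 3.57e-08). In the fit of the 6 libraries 5 genes of this efflux and fatty acid list were lower. With aspartate Insig1 was at 78.4, 85.7 and 85.5 CPM, between both groups.

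The sterol regulatory element, read as TCACNCCAC on both strands, was found in 1.22% of all promoters, in 0.996% of those of tested genes, in 4 of 481 (0.832%) at least 2-fold higher and in 7 of 387 (1.81%) at least 2-fold lower. Of 21 promoters of the sterol list only that of Hmgcs1 (chr13:119690101-119690400, plus strand) held these letters, from 137 bases before the start, and it is shown with the match in capitals. The window and the strict spelling leave out variants of the element.
Hmgcs1: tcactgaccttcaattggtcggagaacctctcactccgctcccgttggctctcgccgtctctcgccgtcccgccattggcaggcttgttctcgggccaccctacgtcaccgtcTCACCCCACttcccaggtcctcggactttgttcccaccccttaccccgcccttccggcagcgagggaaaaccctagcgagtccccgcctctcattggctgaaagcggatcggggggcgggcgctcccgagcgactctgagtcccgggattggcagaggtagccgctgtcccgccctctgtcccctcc

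**Figure D5:**
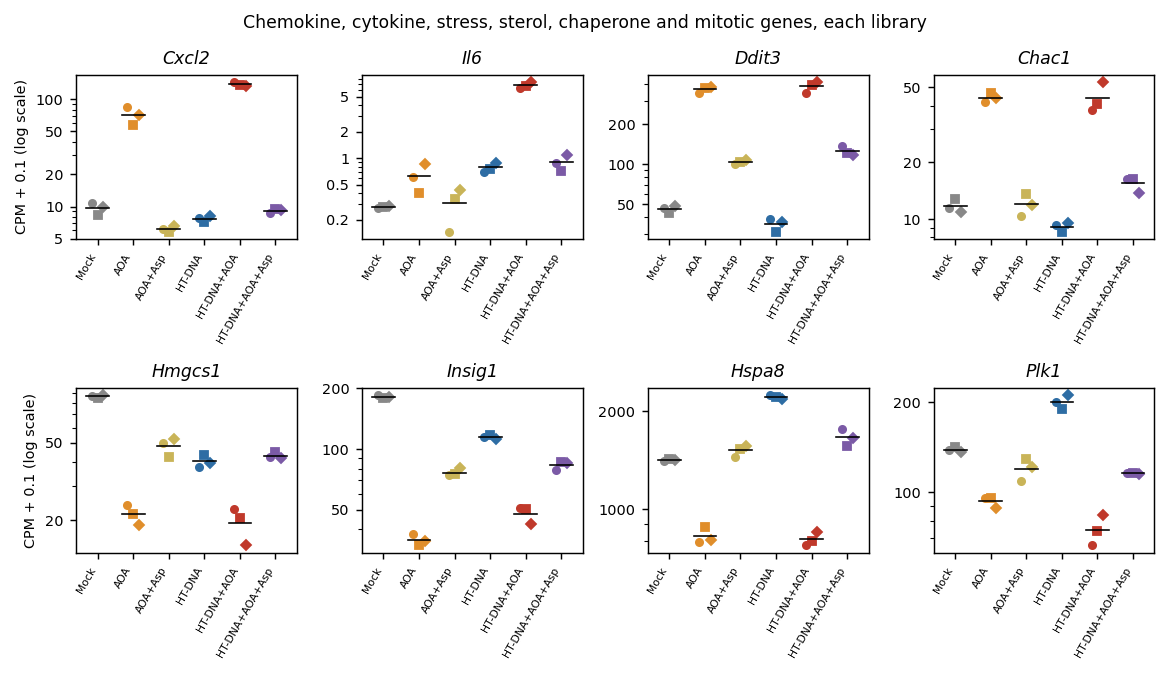
Level of 8 genes in each of the 18 libraries (points, CPM + 0.1 on a log scale), with a line at each group's mean and circles, squares and diamonds for replicates 1, 2 and 3. Cxcl2, Il6, Ddit3 and Chac1 are high in HT-DNA+AOA (Ddit3 at 346, 397 and 417 CPM), and Hmgcs1, Insig1, Hspa8 and Plk1 are low there (Insig1 at 50.7, 50.1 and 42.6 CPM), with the mean of HT-DNA+AOA+Asp between those of HT-DNA and HT-DNA+AOA in each panel but that of Hmgcs1, where it is above both.

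More cell cycle genes fell than rose. Of 32 tested genes of DNA replication, 16 were lower and 3 higher (median -0.27), or 1 higher without HT-DNA replicate 1 or HT-DNA+AOA replicate 1, and of 29 mitotic genes 18 were lower and 0 higher (median -0.47), or 27 and 0 after the correction for length and GC content, and 2 were higher without HT-DNA+AOA replicate 3. Plk1, a kinase of mitosis, was at 199.6, 189 and 211 CPM with HT-DNA and 66.4, 73.98 and 83.96 CPM with HT-DNA+AOA (log2 fold change -1.42 ± 0.08, SE, adjusted p = 9.54e-11), with no overlap. Cdc6, which loads the replicative helicase, went from 55.03, 52.2 and 47.7 CPM to 22.2, 19.7 and 20.3 CPM (log2 fold change -1.32 ± 0.08, SE, adjusted p = 2.22e-10). Ccnb1, Ccne2 and the ribonucleotide reductase subunit Rrm2 fell by 0.58, 0.85 and 0.85 on the log2 scale (adjusted p = 2.8e-07, 2.64e-07 and 5.8e-08). Rrm2b, the counterpart of Rrm2 that p53 induces, rose (log2 fold change 1.49 ± 0.17, SE, adjusted p = 8.19e-07). E2f2, an activator of S-phase genes, fell from 28.6, 25.01 and 28.3 CPM to 5.38, 5.29 and 6.202 CPM (log2 fold change -2.28 ± 0.10, SE, adjusted p = 4.77e-12). The proliferation marker Mki67 overlapped between groups, at 218, 285 and 240.1 CPM and 274, 197 and 158 CPM (log2 fold change -0.24 ± 0.14, SE, adjusted p = 0.168), and was lower past the threshold after the correction and without HT-DNA+AOA replicate 1. For 8 mitotic genes the effect was more negative with HT-DNA, and for 0 less so. The p53 targets did not move in 1 direction, with 6 of 20 higher and 5 lower. Cdkn1a, the inhibitor p21, rose slightly (log2 fold change 0.24 ± 0.08, SE, adjusted p = 0.0157). This call was lost without a filter, in the fit of the 6 libraries and without HT-DNA replicate 2 or HT-DNA+AOA replicate 3.

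Myc, a driver of cell growth, rose from 169, 177 and 181 CPM to 668, 615 and 663 CPM (log2 fold change 1.89 ± 0.07, SE, adjusted p = 1.51e-13) and by 1.95 on the log2 scale without HT-DNA (difference -0.06, adjusted p = 0.673). Egr1, an immediate early gene of growth factor signaling, fell from 9.299, 12.1 and 12.1 CPM to 4.49, 3.39 and 4.11 CPM (log2 fold change -1.49 ± 0.18, SE, adjusted p = 2.18e-06), and Fos fell at low levels (log2 fold change -1.85 ± 0.43, SE, adjusted p = 0.00158). The 21 tested immediate early genes had 7 higher and 7 lower, and the 17 feedback genes of ERK signaling 6 and 6.

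More chaperone genes fell than rose. In the heat shock list 8 of 15 tested genes fell and 1 rose (median -0.68), or 2 rose without HT-DNA+AOA replicate 1 or 3. Hspa8, the constitutive HSC70, was at 2235, 2208 and 2182 CPM with HT-DNA and 778, 801 and 849.9 CPM with HT-DNA+AOA (log2 fold change -1.45 ± 0.06, SE, adjusted p = 3.23e-12). It is very abundant, the groups were far apart, and its reads were shared with other genes in all 18 libraries. Bag3, its cochaperone, fell (log2 fold change -1.15 ± 0.07, SE, adjusted p = 2.65e-10), as did Hspa1b (log2 fold change -2.07 ± 0.21, SE, adjusted p = 1.63e-07), which can share reads with Hspa1a. The gene that rose was Hspd1, the mitochondrial HSP60 (log2 fold change 0.48 ± 0.07, SE, adjusted p = 2.65e-05). In the list of the endoplasmic reticulum 10 of 19 fell and 4 rose (median -0.23), or 2 rose without HT-DNA+AOA replicate 2. In the fit of the 6 libraries 5 of this list fell and 2 rose. Xbp1, a factor of the unfolded protein response, went from 192, 182 and 175 CPM to 105, 109.9 and 125 CPM (log2 fold change -0.69 ± 0.07, SE, adjusted p = 1.2e-07) and Syvn1, the ubiquitin ligase HRD1, from 78.03, 73.4 and 76.3 CPM to 27.5, 26.3 and 34.05 CPM (log2 fold change -1.38 ± 0.10, SE, adjusted p = 1.47e-09). Ern1, the sensor IRE1, rose instead (log2 fold change 1.33 ± 0.11, SE, adjusted p = 2.29e-08). Hspa5, the chaperone BiP, was at 4313, 4200.2 and 3810.2 CPM and 4995, 4907 and 4334 CPM (log2 fold change 0.21 ± 0.07, SE, adjusted p = 0.0137). The Hspa5 call was lost after the correction, with library totals, without a filter and in the fit of the 6 libraries. It was also lost without HT-DNA replicate 3 or HT-DNA+AOA replicate 2. Without HT-DNA 6 of the 19 rose and 2 fell, and the effect was lower with HT-DNA for 8 and higher for 1, for 10 and 0 after the correction. Xbp1 was at 167, 168 and 173 CPM in Mock and 159, 172 and 162 CPM with AOA (difference -0.65, adjusted p = 0.000352).

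Aspartate is a precursor of pyrimidines and purines, and the genes of both pathways were followed. Of 30 tested genes of pyrimidine synthesis and salvage, 7 were higher and 10 lower (median -0.05), against 13 higher and 5 lower without HT-DNA. Umps, which carries out the last steps of UMP synthesis, rose from 396, 396 and 411 CPM to 487, 484 and 541 CPM (log2 fold change 0.33 ± 0.06, SE, adjusted p = 0.00025), Cad, which carries out the first steps, did not pass (log2 fold change -0.03 ± 0.08, SE, adjusted p = 0.782) except after the correction, where it was higher (0.20 on the log2 scale), and Slc29a2, a nucleoside transporter, fell (log2 fold change -1.08 ± 0.11, SE, adjusted p = 2.64e-07). The difference of both effects was negative for 11 of these genes and positive for 1. Of 15 purine genes 4 rose and 5 fell (3 without HT-DNA replicate 3). In the fit of the 6 libraries 2 of the purine genes rose and 2 fell. Of 34 genes of ribosome biogenesis, 14 were higher and 3 lower with HT-DNA, 7 were lower without HT-DNA+AOA replicate 3 and 5 after the correction, and 23 were higher and 1 lower in unstimulated cells, with a lower effect with HT-DNA for 17 and a higher for 0 (22 and 0 after the correction). Nop56, a box C/D snoRNP protein, rose from 409.7, 381 and 383 CPM to 755, 772 and 742 CPM (log2 fold change 0.95 ± 0.06, SE, adjusted p = 2.45e-10) and Polr1b, a subunit of RNA polymerase I, fell (log2 fold change -0.84 ± 0.08, SE, adjusted p = 5.27e-08).

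Transcripts that host snoRNAs, many of which are destroyed by nonsense-mediated decay when translated, rose in 11 of 18 tested and fell in 2 (median 0.53; 1 without HT-DNA replicate 1), with 12 and 0 without HT-DNA. Snhg1 went from 179.7, 140.2 and 154 CPM to 381, 515 and 517 CPM (log2 fold change 1.57 ± 0.11, SE, adjusted p = 1.17e-09) and Snhg12 and Snhg5 rose by 1.46 and 1.31 on the log2 scale (adjusted p = 1.63e-10 and 4.13e-09). The large families of short transcripts depended on the libraries. Of 82 cytosolic ribosomal protein genes 12 were higher and 0 lower, but 4 were lower without HT-DNA+AOA replicate 3, 41 were higher without HT-DNA+AOA replicate 1, and 5 without HT-DNA replicate 2 or HT-DNA+AOA replicate 2 or 3. Of 76 mitochondrial ribosomal protein genes 12 were higher and 16 lower, 24 were higher without HT-DNA+AOA replicate 1, 7 were higher without HT-DNA replicate 2, and 27 were lower without HT-DNA+AOA replicate 3. Of 82 nuclear-encoded genes of the respiratory chain 5 were higher and 5 lower, but 24 were higher without HT-DNA+AOA replicate 1 and 23 lower without HT-DNA+AOA replicate 3. After the correction for length and GC content 29, 20 and 19 genes of the 3 families were higher and 2, 20 and 8 lower. In the fit of the 6 libraries 4, 4 and 3 were higher. Without HT-DNA, AOA raised 73, 41 and 30 genes of the 3 families and lowered 0, 5 and 2. After the correction these became 58, 40 and 26 higher and 0, 11 and 6 lower.

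Mitochondrially encoded mRNAs split. Of 13 tested, mt-Nd1 fell from 4166, 4503 and 4902 CPM to 2743, 2607 and 2689.7 CPM (log2 fold change -0.76 ± 0.07, SE, adjusted p = 5.92e-08) and mt-Nd2 also fell (log2 fold change -0.63 ± 0.07, SE, adjusted p = 2.51e-07), both subunits of complex I, whereas mt-Cytb of complex III rose from 2727, 2993 and 3176 CPM to 4060.3, 4067 and 4032 CPM (log2 fold change 0.45 ± 0.07, SE, adjusted p = 2.22e-05) and mt-Co1 of complex IV rose (log2 fold change 0.37 ± 0.07, SE, adjusted p = 0.000172). The groups did not overlap for these 4 genes. The other 9 did not pass. After the correction for length and GC content 6 of the 13 were lower and 2 higher, and without HT-DNA replicate 3, 4 were higher. All 13 are read from the same small circular genome, so they are not independent. Genes of mtDNA maintenance rose in 10 of 23 tested and fell in 5 (3 without HT-DNA replicate 1 or 2). In the fit of the 6 libraries 2 of them fell. Mgme1, a nuclease of mtDNA replication, rose (log2 fold change 0.65 ± 0.07, SE, adjusted p = 2.01e-07), and Polg, the polymerase, fell (log2 fold change -0.37 ± 0.07, SE, adjusted p = 0.000187). Tfam, which packs mtDNA, was at 49.6, 52.2 and 51.1 CPM and 57.9, 63.96 and 62.3 CPM (log2 fold change 0.27 ± 0.07, SE, adjusted p = 0.00297), a call lost after the correction and in the fit of the 6 libraries. Genes of the mitochondrial pore and release fell in 8 of 21 and rose in 3 (1 without HT-DNA replicate 1, 5 after the correction). Bak1, a pore former, went from 187, 168 and 181 CPM to 108, 122 and 139 CPM (log2 fold change -0.54 ± 0.08, SE, adjusted p = 9.77e-06) while Mcl1, an inhibitor of it, fell as well (log2 fold change -0.66 ± 0.05, SE, adjusted p = 8.82e-09).

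DNA repair lists had members on both sides. In base excision repair 4 of 19 were higher and 5 lower, with the uracil glycosylase Ung falling from 20.5, 17.95 and 18.3 CPM to 7.16, 9.39 and 10.3 CPM (log2 fold change -1.08 ± 0.12, SE, adjusted p = 4.84e-07). In homologous recombination 7 of 23 were higher (11 without HT-DNA+AOA replicate 3) and 7 lower, with Rad52, an annealing factor, rising from 6.27, 6.21 and 7.12 CPM to 21.2, 17.5 and 17 CPM (log2 fold change 1.5 ± 0.11, SE, adjusted p = 2.38e-09). In glycolysis and HIF targets 7 of 30 rose and 11 fell (18 without HT-DNA+AOA replicate 3, 17 with library totals), with Egln3, an oxygen sensor, falling from 256, 273 and 254 CPM to 77.9, 83.3 and 81.9 CPM (log2 fold change -1.69 ± 0.10, SE, adjusted p = 1.08e-10), and Vegfa, the angiogenic factor, rising (log2 fold change 0.93 ± 0.07, SE, adjusted p = 1.47e-09). NRF2 targets fell in 8 of 20 and rose in 2 (4 after the correction). Gsr, glutathione reductase, fell (log2 fold change -0.95 ± 0.07, SE, adjusted p = 3.82e-09), and Hmox1, heme oxygenase, rose (log2 fold change 0.31 ± 0.08, SE, adjusted p = 0.00362) except in the fit of the 6 libraries. Extracellular matrix genes were higher in 4 of 25 and lower in 8, with 7 higher without HT-DNA+AOA replicate 1 and 10 after the correction. Col1a2, a chain of type I collagen, fell from 125, 117 and 124 CPM to 56.7, 59.7 and 59.6 CPM (log2 fold change -1.05 ± 0.06, SE, adjusted p = 9.01e-11), and Mmp14, a membrane metalloproteinase, fell (log2 fold change -1.15 ± 0.07, SE, adjusted p = 1.15e-10). Lysosome genes rose in 9 of 24 and fell in 5 (3 without replicate 1 of either group). The list of histones and methylation donors held genes of methyl donors and of DNA and histone methylation, but no histone gene. Of its 13 tested genes 4 rose and 5 fell, among them Mtap, which salvages methionine (log2 fold change 1.5 ± 0.18, SE, adjusted p = 2.12e-06), and Uhrf1, a partner of DNA methylation (log2 fold change -0.73 ± 0.07, SE, adjusted p = 4.84e-08).

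Outside the lists, some of the largest changes over all genes were of genes with few counts in HT-DNA cells. This was not so for Fam171b. Fam171b, a membrane protein, was at 4.7, 4.74 and 3.93 CPM with HT-DNA and 107, 64.2 and 52 CPM with HT-DNA+AOA (log2 fold change 4.06 ± 0.22, SE, adjusted p = 8.31e-11), and without HT-DNA it rose by 2.05 on the log2 scale. Replicate 1 was the highest. Abcb1a, a drug efflux pump, rose from 0.404, 0.379 and 0.218 CPM to 9.25, 5.08 and 5.61 CPM (log2 fold change 4.31 ± 0.50, SE, adjusted p = 1.05e-06), with reads shared with other genes in 15 libraries. Hhipl1, Med12l and Gpr84, a receptor for medium-chain fatty acids, had at most 3 counts in each HT-DNA library and were at least 20.6-fold, 13.4-fold and 9.33-fold higher with AOA. Hhipl1 was at 3.34, 2.72 and 2.68 CPM there and at 2.48, 1.72 and 1.86 CPM with AOA alone. The largest falls of genes with steady counts included Map1a, a microtubule-associated protein, from 186, 196 and 178 CPM to 38.6, 38.6 and 35.96 CPM (log2 fold change -2.31 ± 0.08, SE, adjusted p = 1.51e-13), Chst12, a chondroitin sulfotransferase (log2 fold change -2.54 ± 0.21, SE, adjusted p = 1.19e-08), Vsir, the checkpoint protein VISTA (log2 fold change -2.42 ± 0.19, SE, adjusted p = 7.27e-09), and Carns1, carnosine synthase (log2 fold change -2.32 ± 0.18, SE, adjusted p = 4.68e-09), although the reads of Carns1 and Map1a were shared with other genes in 18 and 17 libraries. Exosc6, Gm18537 and Gm42634 ranked among the largest changes as well, but they passed in only 2, 5 and 1 of 6 fits without 1 library each, and their counts were 0 in some libraries and not in others of the same group.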

How the data were processed

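Libraries of L929 RNA, 3 in each of 6 groups, were grouped by their labels. Per gene, the authors deposited an estimated count of reads, not normalized. The counting program, aligner, build and test are not given in the sources used here. The design written beforehand assumed whole counts, and 11.6% of the values were not whole, so they were rounded to whole numbers. The authors' 6 columns of group means were not used. Totals ran from 17901605 to 24057343 counts, and intervals and floors from counts cover counting error only.

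Genes were filtered with filterByExpr at a minimum count of 10 and a minimum total of 15, libraries scaled with TMM, and all 18 fitted in 1 robust quasi-likelihood model (edgeR 4.0.16, R 4.3.3) with Benjamini-Hochberg adjustment. Contrasts were HT-DNA+AOA against HT-DNA, AOA against Mock, their difference, and HT-DNA against Mock. Lists are counted whole over 39 sets. Genes were named by a rule: chosen key genes of each list, up to 3 of its largest rises and 3 of its largest falls among called genes whose higher group averaged at least 1 CPM, and the 15 largest rises and falls over all genes with no overlap between groups. The members, lists and contrast were chosen with earlier results of these data known. Where every HT-DNA library had at most 3 counts, a lower bound of the fold is given. An estimated count that was not whole was taken as a sign of reads shared with other genes.

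Transcript length and GC content of 97.5% of the tested genes came from a reference annotation that may not be that of the authors, and the correction removed each library's loess trend (span 0.3). Promoters came from RefSeq. The alternatives were DESeq2 1.42.0, RLE, library totals, a filter of at least 10 counts in every library and none, only the compared groups, a minimum log2 fold change of 1, a block for the replicate number, leaving out each library in turn, and the correction. The edgeR and DESeq2 fits were also run on simulated counts with the same spread in every group and no trend with length or GC content. Such counts lack the wide spread and the trends of the HT-DNA+AOA libraries, so they cannot test the calls given here. Results for some genes are not reported here.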

Additional observations from a re-analysis of the deposited data

Results flagged for a closer look

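Values that differed between AOA added to HT-DNA-stimulated cells and AOA added to unstimulated cells were picked out for a closer look, by the test of the difference in edgeR's quasi-likelihood model. In all, 2209 genes passed. Among the genes named here, 4 had effects of opposite sign that each passed and a difference of at least 1 on the log2 scale, Iigp1 (difference in log2 fold change 3.54 ± 0.78, SE, adjusted p = 0.00685), Igtp (3.23 ± 0.42, adjusted p = 0.000109), Stat2 (1.88 ± 0.14, adjusted p = 1.08e-06) and Irf1 (1.38 ± 0.13, adjusted p = 4.87e-06). Iigp1 and Igtp were at or under 1.09 CPM in every library without HT-DNA, so their fall with AOA alone rests on few counts.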

How the results depend on the processing

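Under DESeq2, RLE factors, library totals, either filter and the correction for length and GC content, which was chosen after seeing the data, the 4 counts of called genes stayed within 1.5 times of those given. With only the compared groups in the fit, 4167 genes passed for AOA with HT-DNA and 1019 for the difference of the AOA effects. Counts of several lists fell there as well, to 7 higher in ribosome biogenesis and 6 higher among NF-κB factors and inhibitors. Homologous recombination fell to 4 higher and 4 lower, and base excision repair to 3 lower. Glycolysis and HIF targets fell to 4 higher, NRF2 targets to 1 higher, genes of the mitochondrial pore and release to 1 higher and lysosome genes to 2 lower. With an absolute log2 fold change of 1 or more also asked for, 1461 genes passed with HT-DNA, 1067 without, 286 for the difference and 623 for HT-DNA alone. Without 1 library at a time the counts were 5573 to 7447, 5457 to 5940, 1153 to 5442 and 5458 to 6685 in that order. The cause of these moves was not tested. Of 332 named genes 266 stayed on their side of the threshold under every alternative except the minimum fold change, and no direction of a called gene reversed.

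Same-numbered libraries of HT-DNA and HT-DNA+AOA share only a number (r of their deviations -0.09, -0.003 and 0.13), and with the replicate number as a block 6499, 6617, 2274 and 6952 genes passed. With the last 150 bases before the start alone, the interferon-stimulated response element was in 32 of 67 promoters of antiviral effectors and in 1.60% of all promoters.

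Only the fit without a filter tested Ifnb1 and its family. A level under 3 counts, about 0.142 CPM with HT-DNA and 0.163 CPM with HT-DNA+AOA, cannot be told from 0. The filter of at least 10 counts in every library left fewer genes to test in the lists of antiviral effectors, chemokines and cytokines, and 41, 5 and 7 of them were higher.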
